A study of Mus musculus with 6 samples.

Results

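The embryonic globins are the oxygen-carrying proteins of the first red cells of the mouse embryo. The 5 globin genes followed across 6 arrays of whole embryos at embryonic day 8.5 were Hba-x, Hbb-bh1, Hbb-y, Hba-a1 and Hbb-b1. They were represented by every probe set whose platform annotation names one of them, which gave 12 of the 45101 probe sets on the array. Of these, 8 list a single globin symbol and 4 list several, so the latter cannot assign their signal to 1 gene. The genes were picked because their values in this same comparison of genotypes were low in double knockout arrays. Their values are therefore given as a description, without a test.

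A globin chain binds a heme group, and hemoglobin joins a pair of alpha-like chains to a pair of beta-like chains. In the mouse, primitive red cells arise in the blood islands of the yolk sac and first make zeta globin (Hba-x) with the beta-like chains beta-H1 (Hbb-bh1) and epsilon-Y (Hbb-y). Adult alpha globin (Hba-a1 and its near-identical neighbour Hba-a2) is made by primitive and adult red cells alike, whereas the adult beta globins mark the later, definitive red cells. Adult beta globin genes differ between mouse haplotypes, with Hbb-bs and Hbb-bt in the haplotype of C57BL/6 mice and Hbb-b1 and Hbb-b2 in the other. At this stage the heart tube starts to beat and primitive red cells pass from the yolk sac into the embryo.

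The study compared 3 arrays of Fz2+/+; Fz7-/- embryos, called single knockout, with 3 arrays of Fz2-/-; Fz7-/- embryos, called double knockout. Fz2 and Fz7 are the Frizzled genes Fzd2 and Fzd7, which encode cell surface receptors for Wnt proteins, and Fz7 was deleted in both groups. All embryos were of mixed sex on a C57BL6/129 mixed background, and it is not labelled whether each sample held 1 embryo or a pool, or whether yolk sac or placenta was attached. Nothing says that replicates were separate litters, so the spread between samples may be partly technical.

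Fzd2, the gene that separates the groups, gave log2 RMA values of 9.86, 9.99 and 10.01 for the single knockout arrays, replicates 1 to 3, and values of 7.30, 7.69 and 7.63 for those of the double knockout. Its difference was -2.42 (SE 0.11, limma adjusted p = 0.00747). It was the only 1 of 45037 probe sets tested to pass an adjusted p of 0.05, a share of 0.00222%. It no longer passed when single knockout replicate 1, 2 or 3 or double knockout replicate 3 was left out. Fzd7, deleted in both groups, differed by -0.04 (SE 0.07), and the labels do not give the place of its probes relative to the deletion. Across all genes, 1 array was unlike the rest. Double knockout replicate 1 correlated with the others at 0.986 to 0.990, against 0.997 to 0.998 among those, and differed from their mean by over 1 log2 unit for 479 genes, a count that was 18 to 37 in every other array. Results are given array by array, and group differences with and without this replicate.

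The promoters of the globins that the values turn on are shown because some of these genes shared a pattern over the arrays and others did not. Each line holds the 200 bases before the transcription start, 5′ to 3′, from RefSeq on GRCm38.p6. Of the 5 members, 3 matched the RefSeq promoter table, Hbb-y, Hba-x and Hba-a1. Hbb-bs was added because it shares the probe set of Hbb-b1. Capitals mark matches on either strand to the 6 motifs searched. These were the CACCC box, the CCAAT box, the TATA-like motif TATAAA with its shifted form ATAAAA, which can overlap it, then the Gata-type motif TGATAA with its shifted form GATAAG, which can overlap it too.
Hbb-y, chr7:103853208-103853407, minus strand: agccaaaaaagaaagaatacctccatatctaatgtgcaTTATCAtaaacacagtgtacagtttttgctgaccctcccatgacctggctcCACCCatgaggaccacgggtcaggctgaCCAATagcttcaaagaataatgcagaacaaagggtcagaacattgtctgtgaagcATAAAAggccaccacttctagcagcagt
Hba-x, chr11:32276400-32276599, plus strand: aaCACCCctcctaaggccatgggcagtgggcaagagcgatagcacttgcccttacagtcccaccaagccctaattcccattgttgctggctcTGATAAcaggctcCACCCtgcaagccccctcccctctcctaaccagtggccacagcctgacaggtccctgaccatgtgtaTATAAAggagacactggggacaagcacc
Hba-a1, chr11:32283472-32283671, plus strand: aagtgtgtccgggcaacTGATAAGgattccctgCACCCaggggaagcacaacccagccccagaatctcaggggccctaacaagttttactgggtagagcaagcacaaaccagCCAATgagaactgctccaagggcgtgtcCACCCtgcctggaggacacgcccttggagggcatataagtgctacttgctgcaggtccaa
Hbb-bs, chr7:103827929-103828128, minus strand: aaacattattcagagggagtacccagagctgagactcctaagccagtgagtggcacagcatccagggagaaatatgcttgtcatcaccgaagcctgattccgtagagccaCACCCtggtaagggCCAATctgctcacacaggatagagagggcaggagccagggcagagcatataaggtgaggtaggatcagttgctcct

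The CACCC box, the kind of site bound by the red cell factor Klf1, was present within 250 bases before the start in 3 of 3 member promoters, and in 51.3% of 27025 promoters in the table. TGATAA, a form of the site bound by the Gata factors, was present in 3 of 3 members and in 8.16% of all promoters. In Hbb-y it lay on the opposite strand, 162 bases before the start. CCAAT was found in Hbb-y and Hba-a1, 83 and 88 bases before the start, and in 34.5% of all promoters. Of the TATA-like motifs, Hba-x held TATAAA (13.0% of all promoters) and Hbb-y held ATAAAA (17.6%), both 28 bases before the start. GATAAG was found in Hba-a1 and in 6.60% of all promoters. The windows of Hba-a1 and Hba-a2, set against each other with a shift of 3 bases, were identical over the 297 bases compared. These matches describe the letters of each window and do not show that a factor binds there.

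The embryonic globins were near the top of the signal range in 4 arrays and far lower in double knockout replicates 1 and 3. Hba-x, the zeta chain that serves as the embryonic alpha-like chain, was at 12.52, 12.64 and 12.03 in the single knockout, and at 5.15, 12.63 and 8.90 in the double knockout, each in the order of replicates 1 to 3 that is kept throughout. Double knockout replicate 2 lay inside the single knockout range and the other two lay below it, so the groups overlapped. Relative to the single knockout mean on this scale, Hba-x was at 0.656% in replicate 1, 118% in replicate 2 and 8.87% in replicate 3. The group difference was -3.50 (SE 1.66), or -1.63 (SE 0.98) without double knockout replicate 1. In these whole-embryo samples, fewer red cells and less globin RNA per cell cannot be told apart.

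Hbb-bh1, the beta-H1 chain, has 3 probe sets, and all were lowest in double knockout replicate 1 and next lowest in replicate 3. The brightest (1450736_a_at) read 13.91, 13.89 and 13.50 in the single knockout and 6.49, 13.97 and 10.57 in the double knockout. Replicate 2 had the highest value of the 6 arrays on this probe set, and replicates 1 and 3 were the lowest. Over the 3 probe sets, double knockout replicate 1 stood at 0.648% to 0.831% of the single knockout mean, replicate 2 at 115% to 120% and replicate 3 at 8.67% to 10.9%. The group differences were -3.42 to -3.40, with SEs of 1.58 to 1.66. Without double knockout replicate 1 they were -1.65 to -1.49.

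Hbb-y, the epsilon-Y chain, also has 3 probe sets. The first, 1436717_x_at, read 13.07, 13.53 and 12.85 in the single knockout and 4.05, 13.51 and 9.28 in the double knockout. The second, 1436823_x_at, read 13.07, 13.55 and 12.84 against 3.85, 13.48 and 9.28. The third, 1450621_a_at, was dimmer at 11.83, 12.55 and 11.55 against 4.58, 12.26 and 8.0. All showed replicate 2 within the single knockout range, replicate 3 below it and replicate 1 lowest. In replicate 1 Hbb-y stood at 0.158% to 0.592% of the single knockout mean, and in replicate 3 at 6.35% to 6.85%. The shares in replicate 1 rest on values about as low as those of a dim probe set of Hba-a1 that was flat over the arrays, so they do not give a level or an order among the genes. The differences were -4.28 to -3.70 (SE 1.72 to 2.14), and -1.85 to -1.76 without double knockout replicate 1. The suffix _x_at marks probe sets whose probes may also bind related transcripts, so these cannot be assigned to Hbb-y with certainty. The same limit holds for 1437990_x_at of Hbb-bh1 and for the adult alpha globin probe sets 1428361_x_at and 1417714_x_at given below.

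**Figure D1:**
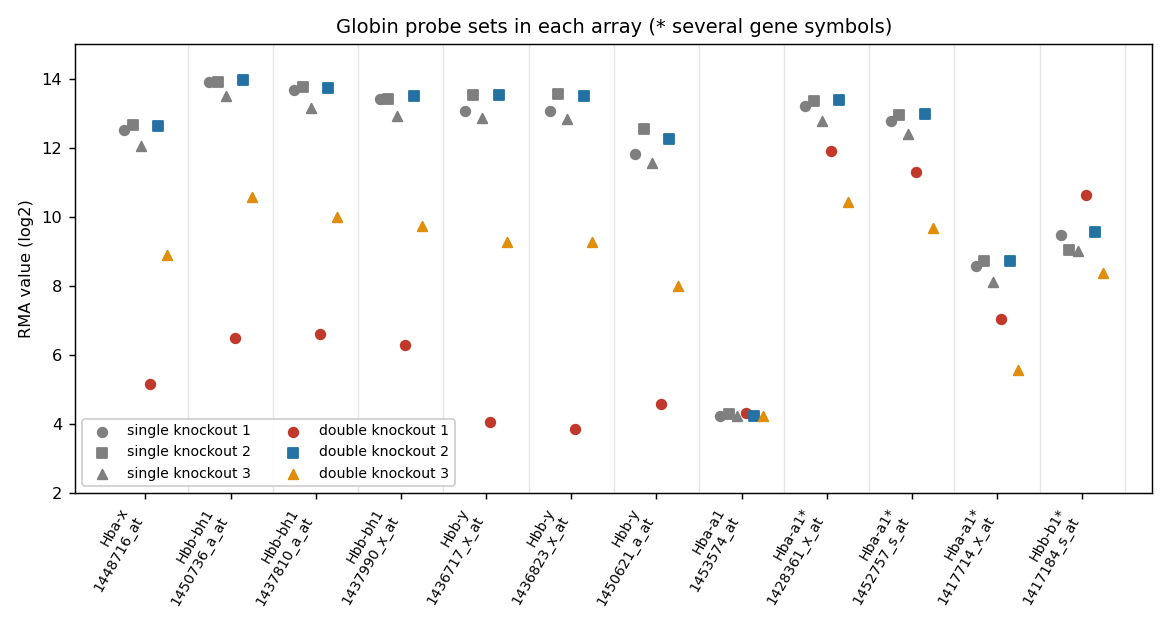
RMA values (log2, vertical axis) of the 12 globin probe sets (horizontal axis) in each of the 6 arrays, grey for single knockout and coloured for double knockout, with marker shape giving the replicate number. The embryonic globins sit between 11.55 and 13.97 in 4 arrays, between 8.0 and 10.57 in double knockout replicate 3 and between 3.85 and 6.61 in double knockout replicate 1.

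In double knockout replicate 1 the embryonic globins lay in the body of the array's distribution and no longer at its top. There Hbb-y was at percentiles 15.8 to 30.6 of all probe sets in that array, Hba-x at 40.1 and Hbb-bh1 at 56.4 to 60.4. In the single knockout arrays the same probe sets lay at percentiles 96.6 to 99.6. In double knockout replicate 3 they lay at 73.9 to 93.3, still above most probe sets. The files used here carry no detection call, so whether Hbb-y in replicate 1 was above background is not known.

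Variation among the single knockout arrays was small and shared by the embryonic globins. Single knockout replicate 3 was the lowest of its group on all 7 embryonic probe sets, with a mean of -0.34 relative to the group mean, and replicate 2 averaged 0.30. The SDs over the 3 single knockout arrays were 0.23 to 0.52. Double knockout replicate 2, at a mean of 0.27 relative to the single knockout, lay within that spread. Replicates 1 and 3 were at means of -7.74 and -3.63. The genes were picked for low values in double knockout arrays, so nothing is read from these distances.

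The adult alpha globins were lower in the same replicates, but in the opposite order. Hba-a1 is listed together with Hba-a2 by 3 probe sets. The brightest (1428361_x_at) read 13.20, 13.36 and 12.76 in the single knockout and 11.89, 13.37 and 10.42 in the double knockout. Here replicate 3 was the lowest array and replicate 1 lay between it and the single knockout, whereas the embryonic globins were lowest in replicate 1. Probe set 1452757_s_at read 12.78, 12.96 and 12.39 against 11.29, 12.96 and 9.69, and 1417714_x_at read 8.59, 8.73 and 8.11 against 7.04, 8.72 and 5.57. Over these probe sets replicate 1 stood at 37.0% to 43.0% of the single knockout mean, replicate 2 at 119% to 120% and replicate 3 at 12.3% to 15.5%. The differences were -1.39 to -1.21 (SE 0.67 to 0.74) and -1.38 to -1.21 without replicate 1.

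The only probe set that lists Hba-a1 alone, 1453574_at, was dim and flat. It read 4.22, 4.31 and 4.23 in the single knockout and 4.32, 4.23 and 4.23 in the double knockout, at percentiles 24.3 to 25.8 of its arrays. Its difference was 0.01 (SE 0.06). It did not share the low values of the probe sets listed with Hba-a2.

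Adult beta globin was highest in the replicate in which embryonic globins were lowest. Hbb-b1 is named by 1 probe set, 1417184_s_at, together with Hbb-bt, Hbb-bs and Hbb-b2. It read 9.46, 9.05 and 9.02 in the single knockout and 10.63, 9.56 and 8.37 in the double knockout. Replicate 1 was the highest of the 6 arrays, at 274% of the single knockout mean, and replicate 3 the lowest, at 57.4%. Replicate 2 was at 130%. The group difference was 0.34 (SE 0.51), -0.21 (SE 0.34) without replicate 1 and 0.92 without replicate 3.

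**Figure D2:**
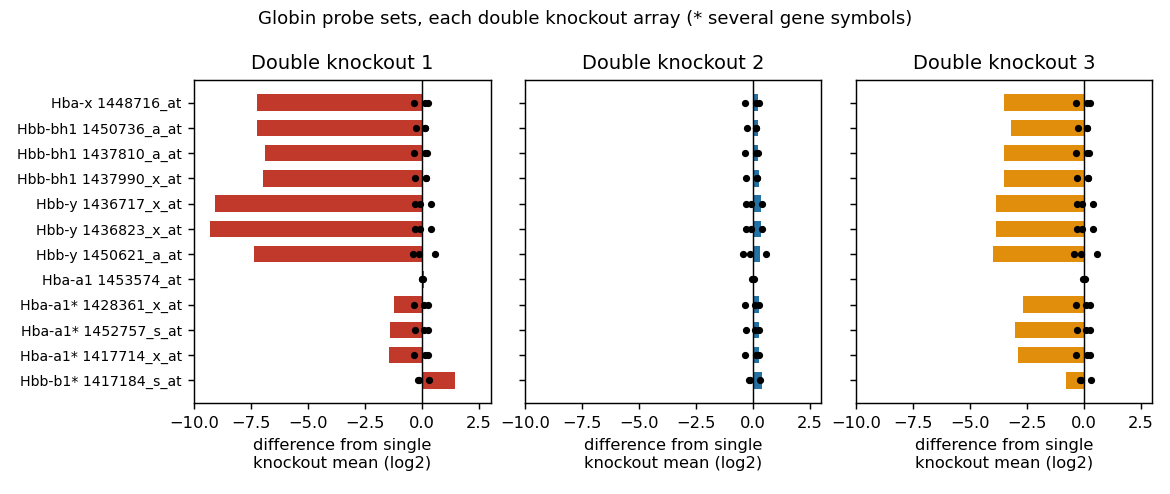
Difference of each double knockout array from the single knockout mean (log2, horizontal axis) for the 12 globin probe sets (vertical axis), 1 panel per double knockout replicate. Bars are the double knockout array and black dots the 3 single knockout arrays. In replicate 1 the bars of the 7 embryonic probe sets run from -9.30 to -6.91 while that of Hbb-b1 points the other way, at 1.46, and in replicate 3 the bars of the embryonic and shared Hba-a1 probe sets run from -3.98 to -2.69.

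The globins differed from one another in how far they lay from the single knockout, and that gap was not the same in each replicate. In double knockout replicate 1 the mean deviation of the embryonic globins was -6.39 relative to that of the shared Hba-a1 probe sets and -9.20 relative to that of the Hbb-b1 probe set. In replicate 3 these figures were -0.76 and -2.83. In replicate 2 they were 0.02 and -0.11, and in the single knockout arrays they ran from -0.05 to 0.05 and from -0.25 to 0.42. These are differences between log2 deviations, so they do not compare the levels of the genes. Embryonic and adult alpha globin deviated by like amounts in the single knockout arrays and in replicate 2, by 0.76 log2 units more for the embryonic genes in replicate 3, and by far more in replicate 1.

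Over all 12 globin probe sets the median difference was -3.40, against -0.0039 over all 45037 probe sets, and it was -1.55 without double knockout replicate 1 and -5.22 without replicate 2. The groups overlapped for all 12, and 5.71% of all probe sets had double knockout values wholly below the single knockout. A difference of -1 or lower was found for 10 of the 12 and for 0.153% of all probe sets. The members were chosen on this contrast, so nothing is read from these counts.

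Each double knockout array was also set against the lowest single knockout array. The members were picked for low values in double knockout arrays, so their counts and ranks here are a description only. In replicate 1, 9 of the 12 globin probe sets lay 1 or more log2 units below it, as did 0.677% of all probe sets. In replicate 2 the count was 0, with 0.0244% of all probe sets. In replicate 3 it was 10, with 0.0711%, which is 32 probe sets in all. Of the 10 probe sets farthest below the single knockout mean among these, 9 in replicate 3 and 7 in replicate 1 were globins, several of the same gene. The remaining 1 in replicate 3 was Slc4a1, the anion exchanger of the red cell membrane. The remaining 3 in replicate 1 were Zic1, a zinc finger transcription factor, at -4.57, the heart gene Myl2 at -4.14 and the predicted gene Gm3515 at -3.98, and all of these were named after their values were seen.

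Of the 16 listed regulators of globin genes, 16 were measured and 0 passed the test in either direction (3 had an unadjusted p under 0.05, where 4.58% of all probe sets did). Their median difference was -0.08, against -0.0093 over the 18193 genes with a single-symbol probe set. Klf1, the transcription factor that activates globin promoters through CACCC boxes, read 7.09, 7.32 and 6.61 in the single knockout and 5.14, 7.04 and 5.22 in the double knockout. Its array order resembled that of the globins, with replicates 1 and 3 below the single knockout and replicate 2 within it. The difference was -1.20 (SE 0.50, limma adjusted p = 0.939). Gata1, the master factor of red cell development, read 5.36, 5.51 and 5.27 against 4.55, 5.37 and 4.86, with a difference of -0.45 (SE 0.20, limma adjusted p = 0.939).

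The other regulators named by rule differed by -0.36 to -0.01. Bcl11a, a repressor of embryonic and fetal globin genes, differed by -0.01 (SE 0.08) and Myb, which favours definitive red cells, by -0.05 (SE 0.09). Sox6, a repressor of Hbb-y, differed by -0.36 (SE 0.21), and was at -0.81 in double knockout replicate 1, where Gata1 was at -0.83. The smallest unadjusted p of the list belonged to Klf2, a Krüppel-like factor that acts on embryonic globin genes, at -0.21 (SE 0.07), and to Gfi1b, a repressor in red cell precursors, at -0.27 (SE 0.11). Groups did not overlap for these 2 genes, which were named for their small p. Of all probe sets, 5.71% had double knockout values wholly below the single knockout. Both genes had a limma adjusted p of 0.939.

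Of 14 listed genes for heme synthesis and globin assembly, 12 were measured and 0 passed the test in either direction. An unadjusted p under 0.05 was found for 1 of the 12, and for 4.58% of all probe sets. The median difference was -0.07. Alas2, the red cell enzyme that starts heme synthesis, read 6.63, 6.86 and 6.32 in the single knockout and 5.58, 6.86 and 5.28 in the double knockout. Its difference was -0.70 (SE 0.39, limma adjusted p = 0.939). Alad, the next enzyme of the pathway, differed by -0.45 (SE 0.17) and Slc25a37, the mitochondrial iron importer mitoferrin, by -0.44 (SE 0.21). Ahsp, the chaperone of alpha globin, was not analysed here.

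Of 15 listed red cell membrane genes, 12 were measured and 0 passed the test in either direction. An unadjusted p under 0.05 was found for 2 of the 12 and for 4.58% of all probe sets. The median difference was -0.21. Ermap, a red cell membrane protein, differed by -0.68 (SE 0.28) and the glycophorin Gypc by -0.48 (SE 0.20), both at a limma adjusted p of 0.939. Over the 40 genes measured in these 3 lists, 30 had a difference below 0, as did 53.8% of the 18193 genes measured. In replicate 3, 4 genes lay 1 or more log2 units below the lowest single knockout array, as did 0.0605% of all genes measured. They were Klf1, Alas2, Slc4a1 and the membrane channel gene Rhag, named after their values were seen. Rhag was dim, at percentiles 25.1 to 27.6 of the single knockout arrays and 2.19 in replicate 3. In replicate 1, 3 genes lay so far below, Klf1, Slc4a1 and Tmod1, which caps actin filaments, as did 1.14% of all genes measured. In replicate 2 the count was 0, with 0.0055% of all genes measured.

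Markers of other cell types gave different values in replicates 1 and 3. In replicate 3, heart genes had a median deviation of -0.02 there, with 0 of 8 lying 1 or more below the lowest single knockout array. Blood island and endothelium genes had 0.07, with 0 of 12, and visceral endoderm genes 0.01. Epiblast genes stood at 0.21 in replicate 3 and 0.45 in replicate 1. In replicate 1 the heart median was -2.56, with 8 of 8 genes 1 or more below. That of blood island and endothelium was -0.69, with 4 of 12. Over all 18193 genes measured, 1.14% lay 1 or more below in replicate 1 and 0.0605% in replicate 3. The lists were chosen with earlier results of these data known, so nothing is read from counts of their members. Visceral endoderm genes, which mark the outer layer of the yolk sac, were at a median of 2.51 in replicate 1. Over all 18193 genes measured the median in that array was -0.0093. The summed level of the visceral endoderm list was 12.82 to 13.32 in the single knockout and 15.46, 12.87 and 12.89 in double knockout replicates 1 to 3 (log2). For heart it was 14.85 to 15.10 against 12.91, 15.04 and 14.91, and for blood island and endothelium 11.76 to 11.99 against 11.45, 11.90 and 11.97. The part of these lists in the globin values was not tested.

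Blood cells of the mother were examined because adult beta globin could also come with maternal blood. Of the 12 listed markers of white blood cells and adult red cells, 9 were below the array median in all arrays. Their summed level was 8.56 to 8.76 in the single knockout and 8.93, 8.68 and 8.72 in double knockout replicates 1 to 3. The median deviation of the 12 was -0.0061 in replicate 1, where that of all 18193 genes measured was -0.0093. Cd52 and Coro1a, both genes of white blood cells, differed by 0.13 (SE 0.07) and 0.20 (SE 0.17), and 0 of the 12 passed the test. S100a8, a protein of neutrophils named after its values were seen, had the largest difference of the 12, at 0.55 (SE 0.49). It stood at 234% of the single knockout mean in replicate 1, 99.3% in replicate 2 and 135% in replicate 3, and its single knockout arrays ran from 3.93 to 5.77. Car1, the carbonic anhydrase of adult red cells, differed by -0.01 (SE 0.07). Of 10 listed trophoblast genes, which mark the placenta, 7 were measured. Their median deviations in replicates 1 to 3 were 0.05, -0.12 and -0.09, but replicate 1 was uneven. There Prl7a1, Prl5a1 and Cts7, named after their values were seen, were at 3.56, 3.46 and 3.68. The others of the 7 were at -0.08 to 0.05. The summed level of these trophoblast genes was 7.33 to 7.42 in the single knockout and 9.29, 7.22 and 7.32 in the double knockout. The part of these markers in the Hbb-b1 value was not tested.

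The remaining rule-named genes of these lists also failed the test, each at a limma adjusted p of 0.939. Emcn, an endothelial surface protein, differed by -0.90 (-0.26 without double knockout replicate 1) and Gata2, a factor of blood stem cells, by 0.11. Among visceral endoderm genes Apoa2 differed by 0.81 (0.17 without replicate 1) and Fgb by 0.73 (0.21). Among trophoblast genes Prl5a1 differed by 1.19 (0.05 without replicate 1) and Psg17 by -0.16. Among heart genes Myl2 differed by -1.74 (-0.55 without replicate 1) and Nppa by -1.70 (-0.69). The epiblast list had 10 of 10 differences above 0, where 53.8% of the 18193 genes measured had one below 0. Its median was 0.24 (0.20 without replicate 1), with Pou5f1 at 2.35 (1.09) and Dppa4 at 0.23 (0.19). The median deviations of the epiblast list in replicates 1 to 3 were 0.45, 0.16 and 0.21. Over all 18193 genes measured they were -0.0093, -0.017 and 0.0040. Not every member was higher in each array. Named after their values were seen, Tdgf1 was at -0.79 in replicate 1 and Sall4 at -0.12 in replicate 2.

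**Figure D3:**
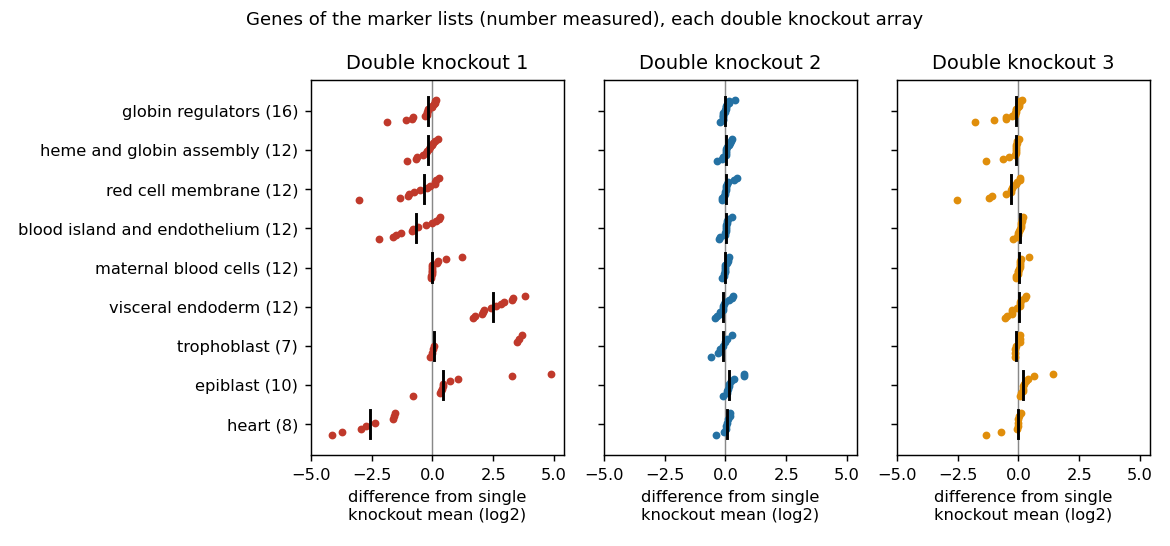
Difference from the single knockout mean (log2, horizontal axis) of each measured gene of 9 marker lists (vertical axis, number measured in brackets), 1 panel per double knockout array, with black bars at the list medians. In replicate 1 the heart median is -2.56 and the visceral endoderm median 2.51, whereas in replicate 3 they are -0.02 and 0.01 and the lowest points are Slc4a1 at -2.52 and Klf1 at -1.78.

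Genes with the array profile most like the embryonic globins were ranked by Pearson correlation over the 6 arrays with the mean of Hba-x, Hbb-bh1 and Hbb-y. The ranking covered 178 genes spanning at least 2 log2 units, with globins left out. The leading 10 had r of 0.946 to 0.964, and all 10 were low in double knockout replicate 1, which weighs most in r. Nppa and Nppb, the natriuretic peptides of the heart, led the list at 0.964 and 0.963. The heart muscle genes Trdn (0.959) and Mybpc3 (0.947), the cytokine receptor chain Csf2rb (0.957), the endothelial gene Plvap (0.947), Hoxb5os (0.956), Nepn (0.954) and Tlcd4 (0.952) followed, and the tenth was Slc4a1 (0.946).

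Without double knockout replicate 1, Slc4a1 and Csf2rb kept r of 0.998 and 0.954 over 5 arrays, and the other 8 had 0.745 to 0.857. Double knockout replicate 3, then the only array with low embryonic globins, weighs most in these r. Slc4a1 read 7.94, 8.07 and 7.65 in the single knockout and 4.85, 8.25 and 5.36 in the double knockout. Nppa read 7.45, 8.66 and 8.20 against 4.39, 8.04 and 6.78, with replicate 3 closer to the single knockout than to replicate 1. Of the 10 genes, Nppa, Nppb, Csf2rb and Slc4a1 were 1 or more below the single knockout mean in replicate 1 and in replicate 3, and the other 6 in replicate 1 only.

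**Figure D4:**
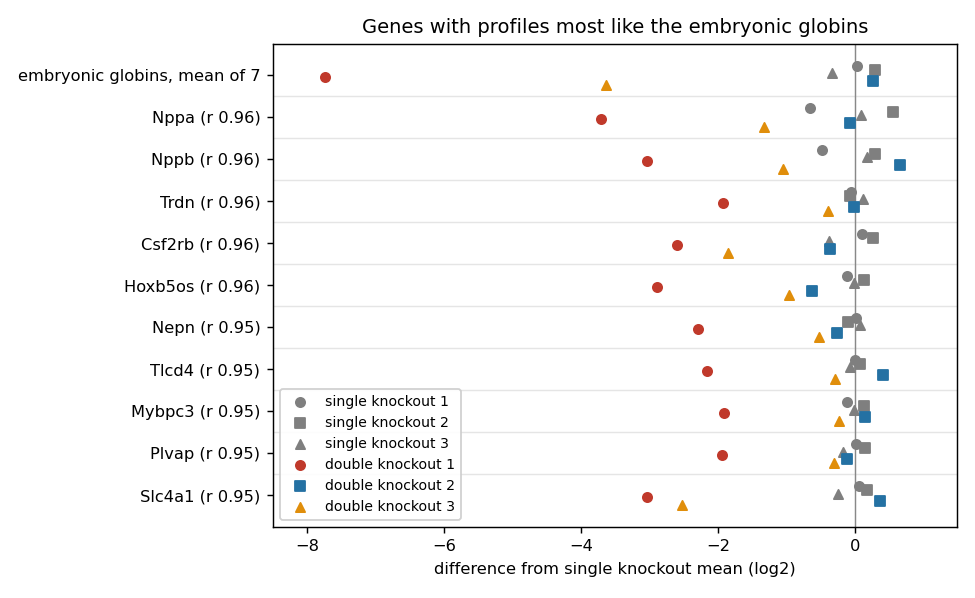
Difference from the single knockout mean (log2, horizontal axis) of the mean of the 7 embryonic globin probe sets and of the 10 genes with the most similar profile (vertical axis, Pearson r in brackets), with 1 point per array. In double knockout replicate 3 the globin mean is -3.63 and Slc4a1 is at -2.52, while in double knockout replicate 1 all 10 genes lie below the single knockout mean.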

How the data were processed

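Total RNA of whole embryos was labelled with biotin and hybridised to single-colour Affymetrix arrays, per the labels' protocols. The authors deposited log2 values made with RMA (background correction, normalization across arrays, summary per probe set), per the submitters' processing notes, with no version named there. Array medians were 5.79 to 5.81. RMA compresses differences of dim probe sets, and the number of arrays limits precision. Of 45101 probe sets, 64 controls were left out and 45037 were fitted in limma 3.58.1 under R 4.3.3 (lmFit, eBayes, two-sided, Benjamini-Hochberg over all, threshold 0.05). The fit was tested on simulated data. Genes of lists were represented by their brightest single-symbol probe set. Named were all globins, Fzd2, Fzd7, 7 fixed red cell genes, list members past the threshold or else the 2 with the smallest p, and the 10 most similar profiles. Members and lists were chosen with earlier results of these data known. Groups and replicate numbers came from the titles. Deviations of same-numbered arrays from their group means correlated at 0.07, -0.10 and -0.03, and those of unlike-numbered arrays at up to 0.21. The numbers were not taken as pairs. The outlying double knockout replicate 1 shifts its group mean, so these correlations cannot settle whether arrays were paired. Alternatives were a replicate block, further scaling or centring, robust trend, dim probe sets left out, 1 probe set or the mean per gene, single-symbol globins only, rank correlation, a longer promoter window and leaving out each array.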

Additional observations from a re-analysis of the deposited data

How the results depend on the processing

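The median globin difference depended on which double knockout arrays were included. It was -3.40 with all arrays and with the replicate block, and -5.22 to -1.55 when 1 array was left out, the former without double knockout replicate 2 and the latter without replicate 1. It was -3.46 over single-symbol probe sets. Among single probe sets, Hbb-y (1436823_x_at) went from -4.28 to -1.77 without replicate 1, and Hbb-b1 from 0.34 to -0.21 without replicate 1 and 0.92 without replicate 3. The count of probe sets passing was 2 with a second quantile normalization, with median centring and with the robust trend, both being Fzd2, and ran from 0 to 3 with 1 array left out. It was 0 without any 1 of the single knockout arrays, and without double knockout replicate 3 the 1 probe set passing named Timm9. No red cell list gene passed under any alternative. Of the 10 most similar profiles, 4 stayed among the leading 10 by Spearman correlation and 6 without double knockout replicate 1. CACCC was in 3 of 3 member promoters in either window. The 3 arrays in each group limit the precision of every value, and signal over background could not be judged from RMA values.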

Other observations

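Other globins lay at or below the middle of the arrays' signal range, at percentiles of 54.9 or lower. Mb, the muscle globin, read 5.44, 5.46 and 5.46 in the single knockout and 5.50, 5.35 and 5.18 in the double knockout on 1 probe set, and differed by -0.14 on its other. Ngb, the neuronal globin, differed by 0.00 and 0.15 on its 2 probe sets, and Cygb, the widely expressed cytoglobin, by -0.06. Probe sets that list Hba-a2 or Hbb-b2 alone differed by -0.03 for Hba-a2 and by 0.01 and 0.33 for Hbb-b2. The probe set at 0.33, 1427866_x_at, read 3.39, 3.09 and 3.26 in the single knockout and 3.90, 3.57 and 3.26 in the double knockout. Replicate 1 was highest there, as on the shared adult beta probe set, at a level near the lowest on the array. The brighter Hbb-b2 probe set, 1427865_at, did not share this. It read 6.02, 5.99 and 5.92 against 5.98, 6.18 and 5.79, with replicate 2 highest. Of these 8 probe sets 0 passed the limma test, and 0 had an unadjusted p under 0.05.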
